A study of Mus musculus with 6 samples.

Results

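Interleukins, ligands of the tumour necrosis factor (TNF) family and their receptors were examined in macrophages cultured from the bone marrow of Bach1 knockout (KO) and wild-type (WT) mice. The set holds 41 named genes, of which 1 (Il12b) had no probe matched to its symbol here, 2 (Il12a and Il23a) were not well above background on any array, and 38 were tested among 15736 genes. The KO group comprised 3 C57BL/6 mice labelled 947, 948 and 949, and the WT group comprised 3 C57BL/6 mice labelled 1, 2 and 3. All were 11 weeks old, with 2 males and 1 female per genotype (KO 949 and WT 3), and each mouse gave 1 one-colour Agilent array. All cultures were kept for 5 days in medium with 10% serum and granulocyte-macrophage colony-stimulating factor (GM-CSF) at 10 ng/mL, a factor under which marrow gives rise to macrophages together with dendritic cells. The sources used here do not say how the Bach1 allele was made.

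Bach1 is a heme-binding transcriptional repressor that pairs with small Maf proteins. Interleukins and TNF ligands are secreted or membrane-bound proteins by which leukocytes and tissue cells signal to each other. Those of the IL-1 family act through receptors of the Toll/IL-1 type and the adaptor MyD88, most other interleukins through JAK kinases and STAT factors, and TNF ligands through receptors that recruit TRAF proteins. Macrophages are a main source of IL-1, TNF and IL-6 once stimulated, and soluble antagonists and decoy receptors hold the IL-1 system in check.

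Of the 38 tested members, 1 was higher in KO macrophages (Il1a), 1 was lower (Il33) and 36 did not pass the test, against 3.41% of all tested genes past the same threshold (limma, Benjamini-Hochberg adjusted p under 0.05, 1.14% higher and 2.27% lower). The KO and WT arrays did not overlap in 12 members, 5 higher and 7 lower in KO, or 31.6% of those tested, against 26.9% of all genes, so the share is near the background. At an unadjusted p under 0.05 there were 3 members higher and 8 lower in KO, against 20.4% of all genes in either direction, 8.87% higher and 11.6% lower. With the slide as a block, 1 member passed (Il1a), against 0.534% of all genes. The median difference of the members was -0.01 on the log2 scale and that of all genes was also -0.01. With arrays scaled to their median the values were 0.21 and 0.21, and 12 in place of 19 members lay below 0.

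**Figure D1:**
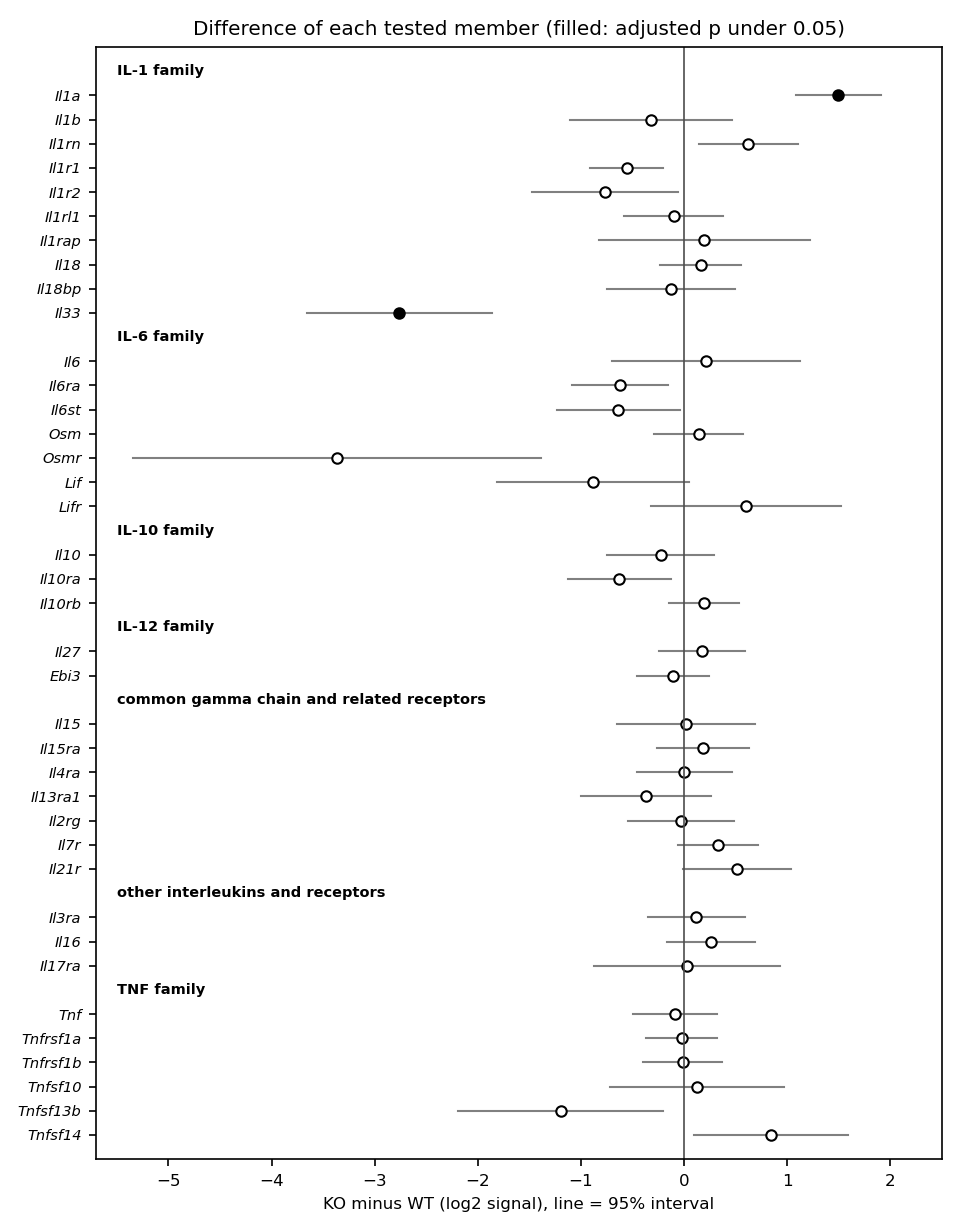
Difference (KO minus WT, log2 signal) of each of the 38 tested members, grouped by family, with its 95% interval from limma as a line. Filled points passed the threshold. Il1a lies at 1.49 and Il33 at -2.76, and 24 of the 38 members lie within 0.5 of 0.

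The arrays set some limits. Between 62.5% and 65.1% of spots were well above background on KO arrays, against 70.3% to 73.2% on WT arrays, and on every array the dimmest such spot lay between -6.16 and -5.68. Levels are on the log2 scale, set against each array's 75th percentile, and levels of different genes are not compared, since each comes from its own probe. KO 947 and the 3 WT arrays lay on 1 slide and KO 948 and KO 949 on another, so that with the slide as a block KO 947 alone sets the difference. The Bach1 probe read 1.45, 2.00 and 2.23 on KO 947, 948 and 949, against 2.21, 2.48 and 2.59 on WT 1, 2 and 3. Its genotypes overlapped (-0.54 ± 0.24, SE, n = 3 mice per genotype, limma adjusted p = 0.262), and since its place relative to the deleted part is not given, it checks no label. The 10 tested macrophage markers were well above background on all arrays, Adgre1, the classical surface marker of mouse macrophages, averaging 6.02 ± 0.09 in KO and 5.81 ± 0.06 in WT (SD, n = 3 each). Of the 10, Mrc1 and Msr1, which encode scavenging receptors, rose by 1.07 and 1.35 (adjusted p = 0.0170 and 0.0149) and 8 did not pass.

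The windows around the transcription starts of the 2 members that passed are shown because Bach1 and small Maf proteins bind DNA at elements built on the letters searched here. In 300 bases across each RefSeq start (build GRCm38.p6), TGAGTCA, the core shared by AP-1 and Maf elements, and TGACNNNGC, the core of the antioxidant response element, were searched on both strands, and matches are in capitals. The motifs can overlap, as they did in Il15ra.
Il1a, chr2:129309923-129310222, minus strand: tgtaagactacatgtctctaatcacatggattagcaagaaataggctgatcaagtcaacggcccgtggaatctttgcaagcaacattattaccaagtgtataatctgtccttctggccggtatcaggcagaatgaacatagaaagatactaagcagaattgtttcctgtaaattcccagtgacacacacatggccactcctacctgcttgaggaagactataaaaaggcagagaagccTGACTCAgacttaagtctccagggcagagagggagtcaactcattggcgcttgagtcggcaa
Il33, chr19:29924863-29925162, plus strand: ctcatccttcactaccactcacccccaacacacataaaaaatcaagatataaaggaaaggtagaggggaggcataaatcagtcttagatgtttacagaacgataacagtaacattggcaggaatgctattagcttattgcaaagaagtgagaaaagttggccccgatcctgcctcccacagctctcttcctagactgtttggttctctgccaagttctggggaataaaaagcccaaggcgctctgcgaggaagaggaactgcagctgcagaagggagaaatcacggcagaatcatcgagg
Il33, chr19:29945540-29945839, plus strand: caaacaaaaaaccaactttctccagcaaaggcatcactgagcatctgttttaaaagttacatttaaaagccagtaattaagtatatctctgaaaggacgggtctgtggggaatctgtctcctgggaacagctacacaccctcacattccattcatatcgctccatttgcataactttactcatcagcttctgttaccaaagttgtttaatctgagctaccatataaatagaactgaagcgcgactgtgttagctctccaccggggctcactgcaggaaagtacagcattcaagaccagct

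The Il1a window held 1 TGAGTCA match, on the other strand, whose first base lies 12 bases before the start, and no TGACNNNGC. Neither Il33 window held either motif. TGAGTCA stood in 5.2% of 32851 windows of this length genome-wide and in 9 of the 44 windows found for 33 members (20.5%). These were windows of Il1a, Il1rn, Il6, Il15ra, Il16, Lif, Tnfsf13b and Tnfsf14. The windows of Tnfsf13b overlap and hold the same match, which is counted in each, so windows of 1 gene are not independent. TGACNNNGC stood in 12.4% of all windows and in 6 of the 44 (13.6%). These matches describe letters in the windows and are not binding sites.

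The alarmin ligand Il1a was higher in KO macrophages. Il1a encodes IL-1 alpha, which signals through the receptor IL-1R1 and is active without cleavage by caspase-1. Its level was -0.47, -0.85 and -0.88 on KO 947, 948 and 949, against -2.39, -2.19 and -2.11 on WT 1, 2 and 3. No WT array reached the level of any KO array, and KO 947 was the highest. Il1a rose by 1.49 ± 0.17 on the log2 scale, or 2.82-fold (SE, n = 3 per genotype, 95% interval 1.08 to 1.91, limma adjusted p = 0.0116). Blocked on slide, it rose by 1.75 and still passed (adjusted p = 0.0428), whereas the call was lost without WT 1 (adjusted p = 0.0536) and without WT 2 (adjusted p = 0.0503), with a difference of 1.41 and 1.51.

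Il1b, the form of IL-1 that is activated by caspase-1, did not pass. It read 1.25, 1.76 and 1.70 on the KO arrays, against 1.73, 1.36 and 2.58 on the WT arrays, and the genotypes overlapped. Its difference was -0.32 (95% interval -1.11 to 0.46, adjusted p = 0.627), so a fall of just over 1 log2 unit and a smaller rise both lie within the interval. Il18, another substrate of caspase-1, averaged 2.32 ± 0.15 in KO and 2.16 ± 0.19 in WT (SD, n = 3 each), a difference of 0.16 (interval -0.23 to 0.55). Within each array, Il1a minus Il1b was -1.72, -2.61 and -2.58 in KO and -4.12, -3.55 and -4.70 in WT, without overlap (exact permutation test, two-sided, p = 0.1, the smallest that 3 against 3 arrays can give).

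The brakes of the IL-1 system lay in both directions, and none passed the test. Il1rn encodes the receptor antagonist that competes with both IL-1 ligands. It read -0.64, -1.16 and -1.18 on the KO arrays, against -1.81, -1.58 and -1.46 on the WT arrays, without overlap (0.62 ± 0.20, adjusted p = 0.152; blocked on slide, 0.98). Il1r2, a decoy receptor without a signalling domain, read 2.87, 2.51 and 1.93 in KO, against 3.06, 2.92 and 3.64 in WT. KO 947 and WT 2 differed by little, and the difference was -0.77 ± 0.30 (adjusted p = 0.212; blocked on slide, -0.34). Il18bp, which binds and neutralises IL-18, averaged 2.00 ± 0.24 in KO and 2.13 ± 0.46 in WT (-0.13, adjusted p = 0.817).

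Within each array, Il1a minus Il1rn was 0.16, 0.31 and 0.30 in KO and -0.58, -0.61 and -0.65 in WT. This difference between Il1a and the antagonist was higher on every KO array than on any WT array, by a mean of 0.87 (exact permutation test, two-sided, p = 0.1, the smallest possible). For the other ligand the direction was opposite, with Il1b minus Il1rn at 1.89, 2.92 and 2.88 in KO and 3.54, 2.94 and 4.04 in WT, a mean difference of -0.95 without overlap (exact permutation test, p = 0.1), although KO 948 and WT 2 nearly met. Of 5 such pairs computed, all chosen with the levels known, both of these and Il1a minus Il1b had a Benjamini-Hochberg adjusted p of 0.167 in the exact permutation test. Il1r1 minus Il1r2 and Il18 minus Il18bp overlapped (adjusted p = 0.6 and 0.5, exact permutation test).

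The signalling receptor Il1r1 was lower on all KO arrays but did not pass. It read -1.04, -0.87 and -0.94 on KO arrays, against -0.57, -0.30 and -0.31 on WT arrays (-0.56 ± 0.15, interval -0.91 to -0.20, adjusted p = 0.104). Its accessory chain Il1rap, shared with the IL-33 receptor, averaged -3.13 ± 0.68 in KO and -3.33 ± 0.63 in WT (0.20, interval -0.83 to 1.22). The IL-33 receptor Il1rl1 (ST2) averaged 0.14 ± 0.16 in KO and 0.24 ± 0.31 in WT (-0.10, interval -0.58 to 0.38). Its 2 other probes above the filter differed by 0.35 and -0.16 and did not pass either, and their signs differ.

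Il33 was lower in KO macrophages. Il33 encodes a nuclear alarmin of the IL-1 family that is known mainly from stromal, endothelial and epithelial cells and that acts on ST2-bearing mast cells, basophils and innate lymphoid cells. It read -3.59, -3.45 and -3.13 on KO 947, 948 and 949, against -1.09, 0.26 and -1.05 on WT 1, 2 and 3. Every KO array lay more than 2 log2 units below every WT array, and WT 2 was the highest. Il33 fell by 2.76 ± 0.38 on the log2 scale and was 6.77-fold lower (SE, n = 3 per genotype, 95% interval -3.66 to -1.86, limma adjusted p = 0.0185), with all 6 arrays well above background. Blocked on slide, the difference was -2.96 and did not pass (adjusted p = 0.0908). The call was also lost without WT 1 (adjusted p = 0.0536) and without KO 948 (adjusted p = 0.0681), with differences of -2.99 and -2.73.

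**Figure D2:**
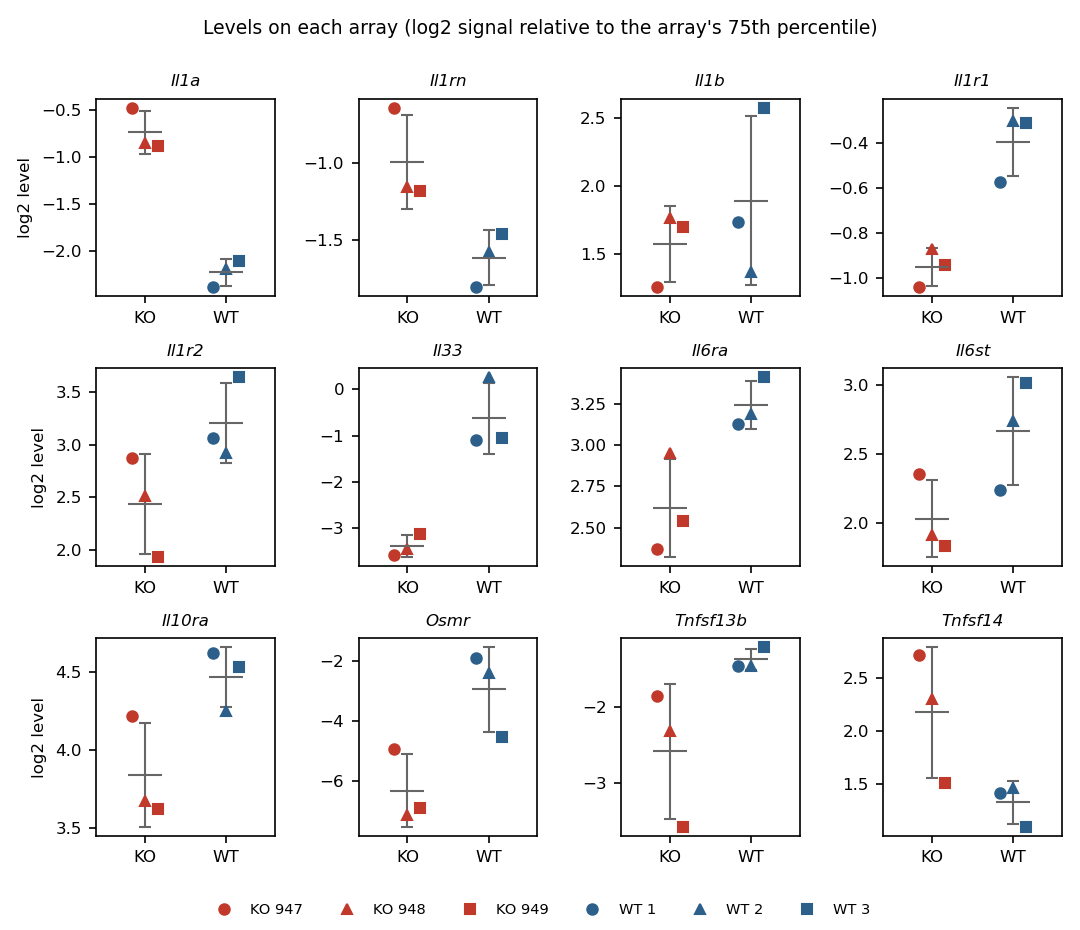
Levels (log2, scaled by the array's 75th percentile) of 12 members on each KO and WT array, with mean and SD as bars and the vertical axis scaled per gene. Il1a, Il1rn and Tnfsf14 are higher on every KO array, Il1r1, Il1r2, Il33, Il6ra, Il10ra, Osmr and Tnfsf13b lower, and Il1b and Il6st overlap.

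Most markers of stromal cells moved with Il33. Of 12 listed stromal markers 9 of the 10 tested were lower in KO. Among the 9, Cxcl12 met the filter through its WT arrays alone, so its direction was largely set on entry. Kitl was higher on every KO array (0.58 ± 0.18, limma adjusted p = 0.137), and Dcn was lower in the mean but overlapped (-1.21, adjusted p = 0.694). The summed linear signal of the list, in units of the 75th percentile, was 4.36 to 6.13 on KO arrays, against 11.2 to 41.3 on WT arrays. Such a sum is weighted to bright probes. On KO arrays the brightest was Acta2 (1.87, 2.13 and 2.11), which was lower in KO but did not pass (limma adjusted p = 0.121). Sparc read -5.09, -4.96 and -4.59 on the KO arrays, against 3.78, 3.79 and 1.31 on the WT arrays. Sparc, Col1a1 and Col1a2, which encode matrix proteins, differed by -7.84, -5.62 and -5.55 (adjusted p = 0.00930, 0.0191 and 0.00930), with 1 KO array of Col1a1 below background. Blocked on slide, Sparc passed (adjusted p = 0.0486) and Col1a1 and Col1a2 did not (0.0848 and 0.0534). The stromal sum of WT 3 (11.2) was well below those of WT 1 and WT 2 (41.3 and 38.7), whereas Il33 on WT 3 (-1.05) was close to its level on WT 1 (-1.09). In these bulk cultures fewer cells of a type and less RNA per cell cannot be told apart. The part of stromal cells in the difference of Il33 was not tested. Lum was not well above background on any array. Of 5 endothelial markers Tek and Emcn were also not above background, and the sums overlapped (1.69 to 2.11 in KO, 1.82 to 2.37 in WT).

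Osmr, the oncostatin M receptor chain that is known mainly from stromal and epithelial cells, was lower on all KO arrays but did not pass. It read -4.92, -7.11 and -6.90 on the KO arrays, of which KO 947 alone was well above background, against -1.89, -2.40 and -4.54 on the WT arrays. WT 3, the female of the WT group, was the lowest WT array. It was also the lowest for 8 of the 10 tested stromal markers, among them Kitl, which was higher in KO. It was not the lowest for Thy1 (-1.98, -1.93 and -0.49 on WT 1, 2 and 3) or Cxcl12 (-2.76, -5.00 and -3.04). The part of stromal cells or of sex in this order was not tested. WT 3 and KO 947 differed by little in Osmr. The difference was -3.37 ± 0.83 (adjusted p = 0.0845), with a size that is not fixed, since 2 KO arrays were below background. Blocked on slide, it was -1.98. Without KO 947 it was -4.06 and passed (adjusted p = 0.0452), but that fit rests on the 2 KO arrays below background, so its size is not fixed either.

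**Figure D3:**
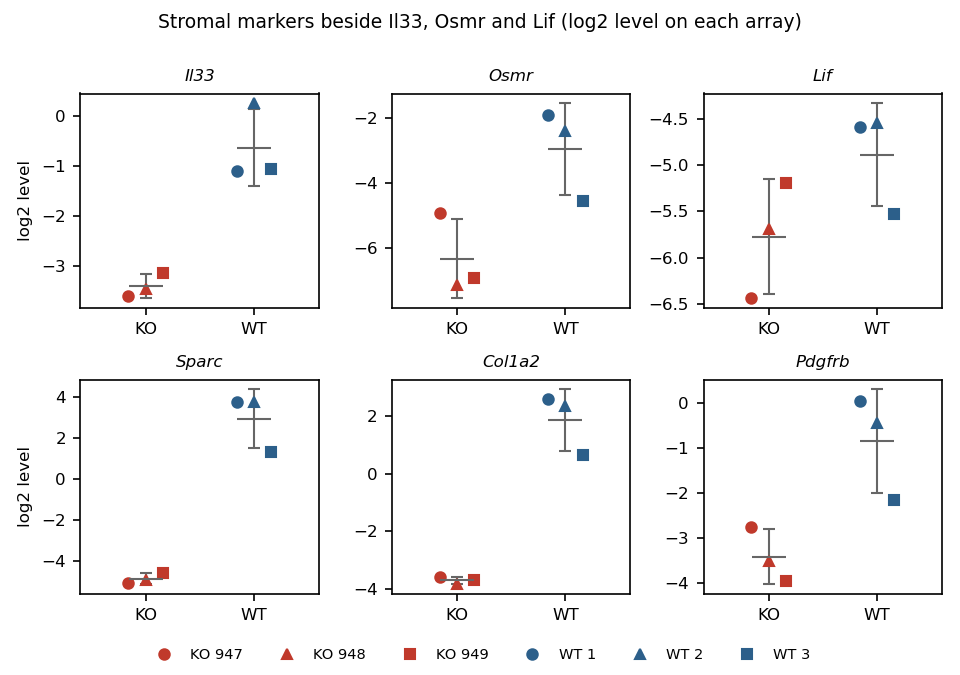
Levels (log2, scaled by the array's 75th percentile) of Il33, Osmr and Lif and of the stromal markers Sparc, Col1a2 and Pdgfrb on each KO and WT array, with mean and SD as bars. WT 3 is the lowest WT array in Osmr, Lif and the 3 markers drawn, which were chosen with their values known, but not in Il33. In the whole stromal list it is the lowest in 8 of 10 tested markers. WT 3 is the female of the WT group, and the part of stromal cells or of sex in this order was not tested.

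The remaining IL-6 family genes did not pass. This family signals through the shared chain gp130, encoded by Il6st, which read 2.35, 1.91 and 1.83 in KO, against 2.24, 2.74 and 3.01 in WT. KO 947 lay above WT 1, so the genotypes overlapped (-0.64 ± 0.25, adjusted p = 0.216). Il6ra, the ligand-binding receptor for IL-6, was lower on all KO arrays, at 2.37, 2.95 and 2.54, against 3.13, 3.19 and 3.41 on WT arrays (-0.62 ± 0.20, adjusted p = 0.141). Under normexp background correction with quantile normalization Il6ra differed by -0.80 and passed (adjusted p = 0.0435).

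The ligands of this family overlapped between genotypes. Il6 read -2.65, -1.46 and -2.71 in KO, against -2.88, -2.52 and -2.07 in WT (0.21, interval -0.70 to 1.12), and KO 948 set the sign of its mean difference. Without KO 948 it differed by less than 0 (-0.19). Osm, which encodes oncostatin M, averaged -1.74 ± 0.29 in KO and -1.88 ± 0.03 in WT (0.14, interval -0.29 to 0.57). Lif, the leukaemia inhibitory factor, was above background on 1 KO and 2 WT arrays only, at -6.43, -5.69 and -5.19 in KO, against -4.59, -4.55 and -5.53 in WT (-0.88, adjusted p = 0.265). Its receptor Lifr averaged -1.60 ± 0.57 in KO and -2.20 ± 0.59 in WT (0.60, adjusted p = 0.433), and 2 further probes gave 0.23 and -0.05, so the probes disagree on the sign.

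In the IL-10 family, whose ligand damps macrophage activation, no gene passed in limma, and Il10ra alone had an unadjusted p under 0.05. Il10 was dim, at -4.83 ± 0.05 in KO and -4.60 ± 0.39 in WT (-0.23, interval -0.74 to 0.29). Il10ra, the ligand-binding chain, read 4.22, 3.67 and 3.62 in KO, against 4.62, 4.25 and 4.53 in WT. KO 947 was the highest KO array and only just below WT 2, and the difference was -0.63 ± 0.21 (adjusted p = 0.162; blocked on slide, -0.25). Il10rb, the chain it shares with other cytokine receptors, averaged 4.75 ± 0.13 in KO and 4.56 ± 0.08 in WT (0.19, adjusted p = 0.496), without overlap.

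The IL-12 family consists of paired subunits. Il12a and Il23a, subunits of IL-12 and IL-23, were not well above background on any array, and no fold is given for them. Ebi3, a subunit of IL-27, averaged 4.82 ± 0.02 in KO and 4.93 ± 0.17 in WT (-0.11, interval -0.46 to 0.25). Its partner Il27 averaged 0.83 ± 0.16 in KO and 0.65 ± 0.23 in WT (0.17, interval -0.25 to 0.59). Both intervals leave differences under 0.6 log2 units.

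Receptors of the common gamma chain group, which bind IL-4, IL-7, IL-15 and IL-21, did not pass in limma. On the probes used, 0 had an unadjusted p under 0.05, and they lay mostly close to 0. The shared chain Il2rg averaged 3.71 ± 0.32 in KO and 3.74 ± 0.22 in WT (-0.03, interval -0.54 to 0.48). Il7r read 5.54, 5.11 and 5.39 in KO, against 4.96, 5.02 and 5.08 in WT, without overlap (0.33 ± 0.16, adjusted p = 0.314). Il21r read 4.58, 4.39 and 4.13 in KO, against 3.77, 3.57 and 4.23 in WT (0.51 ± 0.22, adjusted p = 0.255), where KO 949 lay below WT 3.

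Il4ra, the receptor chain through which IL-4 and IL-13 drive alternative activation, differed by 0.00 (interval -0.46 to 0.46). Its second, dimmer probe read -0.26, -0.45 and -0.52 in KO, against -0.96, -1.17 and -0.58 in WT, without overlap. That probe differed by 0.50 and did not pass (limma unadjusted p = 0.0448, adjusted p = 0.266 over all 37827 probes), so the 2 probes disagree. Il13ra1, its partner chain, differed by -0.37 (adjusted p = 0.485). Il15 differed by 0.02 (interval -0.65 to 0.68), and Il15ra, which presents IL-15 to neighbouring cells, by 0.18 (interval -0.26 to 0.63) and by 0.52 on its other probe. Outside this group, the receptors Il3ra and Il17ra differed by 0.12 and 0.03, and Il16, a ligand of CD4, by 0.26, with adjusted p of 0.775, 0.974 and 0.461. Il17ra varied the most of these, at 0.42, -0.34 and -0.95 in KO, against -0.69, -0.41 and 0.14 in WT.

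Tnf and its receptors differed little between genotypes. Tnf read 0.07, -0.04 and -0.39 in KO, against -0.09, -0.09 and 0.07 in WT (-0.09, interval -0.49 to 0.32, adjusted p = 0.815). Tnfrsf1a, the widely expressed receptor with a death domain, differed by -0.02 (interval -0.37 to 0.32) and by -0.08 on its other probe. Tnfrsf1b, the receptor without a death domain, differed by -0.01 (interval -0.40 to 0.37). Together these intervals run from -0.49 (Tnf) to 0.37 (Tnfrsf1b) log2 units.

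Among the other TNF ligands, Tnfsf14 was higher and Tnfsf13b lower on all KO arrays, and neither passed. Tnfsf14 (LIGHT), a ligand of the lymphotoxin beta receptor and HVEM, read 2.72, 2.30 and 1.51 in KO, against 1.42, 1.47 and 1.10 in WT. KO 949 was barely above WT 2 (0.84 ± 0.31, adjusted p = 0.197; blocked on slide, 1.39). Tnfsf13b (BAFF), a survival factor of B cells, read -1.86, -2.32 and -3.57 in KO, against -1.46, -1.46 and -1.22 in WT. KO 949 stood far below the other KO arrays (-1.20 ± 0.42, adjusted p = 0.174; blocked on slide, -0.47). Tnfsf10 (TRAIL), an inducer of apoptosis, averaged -2.94 ± 0.61 in KO and -3.06 ± 0.43 in WT (0.12, interval -0.72 to 0.97).

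By role, the 16 tested ligands held both calls and had a median difference of 0.07. None of the 19 receptors passed, with a median of -0.01, and 5 of them, all lower in KO, had an unadjusted p under 0.05 in the limma test (Il1r1, Il6ra, Il6st, Il10ra and Osmr), against 11.6% of all genes lower in KO at that p. None of the 3 antagonists or decoy receptors passed either, of which Il1rn was higher and Il1r2 lower in KO at that p. These 5 receptors were picked by that p, and scaling arrays to their median shifts the differences of all genes alike, so it is no separate check. Under it they were lower by 0.34 to 3.15 and none passed (limma adjusted p from 0.0735 to 0.316), while the median of all receptors was 0.20.

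**Figure D4:**
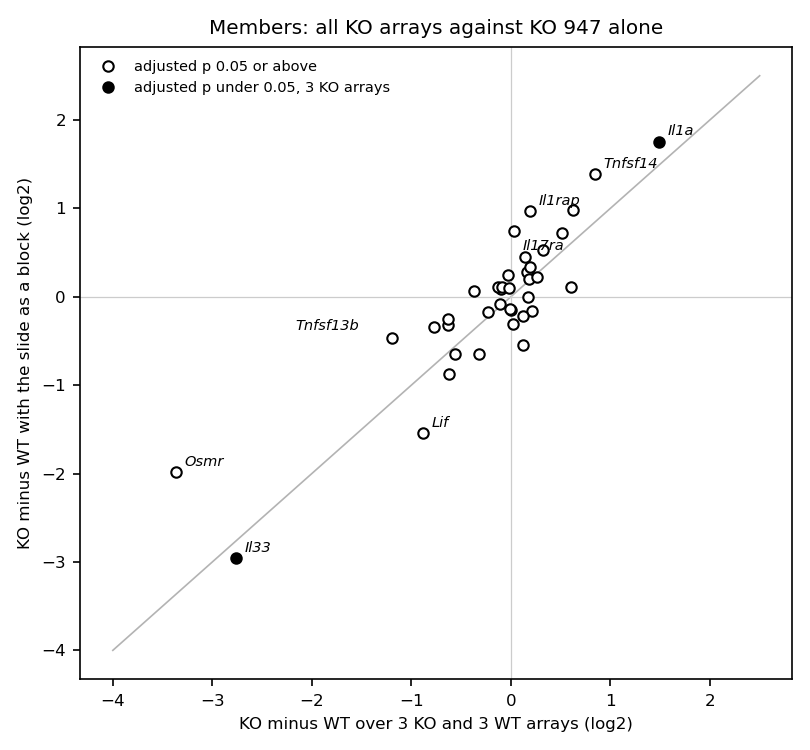
Difference of each of the 38 members over all arrays (horizontal axis, log2, KO minus WT) against the slide-blocked difference, which KO 947 alone sets (vertical axis, log2). The line marks equal values. Il1a (1.49 and 1.75) and Il33 (-2.76 and -2.96) lie near it, and Osmr (-3.37 and -1.98) lies off it.

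Genes that act beside the members were taken from 5 lists of 165 genes, of which 138 were tested. Of these, 0 were higher, 6 were lower in KO and 132 did not pass, against 3.41% of all genes past the threshold. Among the 6, Il23r met the filter through its WT arrays alone, so its direction was largely set on entry. At an unadjusted limma p under 0.05, 10 were higher and 30 lower in KO, against 8.87% and 11.6% of all genes. Traf1, an adaptor of TNF receptors, fell by 1.78 ± 0.16 (adjusted p = 0.00930), at 2.12, 1.96 and 1.86 in KO, against 3.60, 3.70 and 3.97 in WT. It was the 1 of 21 tested genes of IL-1 and TNF receptor signalling that passed. Jak2, the kinase used by GM-CSF and IL-12 receptors among others, fell by 0.96 ± 0.19 (adjusted p = 0.0477), at 3.28, 3.64 and 3.87 in KO, against 4.60, 4.59 and 4.47 in WT, and was the 1 of 25 JAK-STAT genes that passed. Blocked on slide, Traf1 differed by -1.64 (adjusted p = 0.0528) and Jak2 by -1.28 (adjusted p = 0.0599), and neither passed. Leaving out any 1 array kept the call of Traf1, whereas that of Jak2 was lost in 5 of these 6 fits (adjusted p from 0.0692 to 0.152), all but that without KO 947.

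Among 34 other TNF superfamily genes 2 fell. Cd70, the ligand of CD27, fell by 2.00 ± 0.28 (adjusted p = 0.0194), at -2.74, -2.87 and -3.65 in KO, against -1.15, -0.82 and -1.30 in WT. Cd40, the costimulatory receptor of macrophages, dendritic cells and B cells, fell by 2.04 ± 0.41 (adjusted p = 0.0499), at -0.89, -0.22 and -0.69 in KO, against 0.88, 1.09 and 2.36 in WT. Blocked on slide, the adjusted p was 0.113 for Cd70 and 0.151 for Cd40. Cd40 was lost without any 1 array except WT 3, and Cd70 without WT 1, WT 2 or KO 948 (adjusted p = 0.0829, 0.0712 and 0.0574).

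Among 43 other interleukins and receptors, 2 receptors fell on the probe used. Il23r, a chain of the IL-23 receptor, was dark (not well above background) on all 3 KO arrays and read -4.93, -5.55 and -4.45 on WT arrays. It met the filter through the WT arrays alone, so its direction was largely set on entry. Its limma adjusted p (0.0241) is therefore no separate support for a fall. By the measured levels it was at least 1.97-fold lower in KO. Here the fold is the WT mean against, on each KO array, the higher of the lowest level well above background and the measured value. Il18r1, a chain of the IL-18 receptor, fell by 2.24 ± 0.41 (adjusted p = 0.0431, with 1 KO array above background), but its other probe, above background on all 6 arrays, differed by -0.18 and overlapped. Blocked on slide, neither passed (adjusted p = 0.0954 for Il23r and 0.165 for Il18r1). Without 1 array, Il23r was lost when WT 1, WT 3 or KO 949 was left out, and Il18r1 in every case except KO 948. None of 15 tested genes of cytokine processing and release passed. At an unadjusted limma p under 0.05, 1 was higher and 1 lower in KO, against 8.87% and 11.6% of all genes. Mefv, which encodes pyrin, differed by -1.53 (adjusted p = 0.0756) and the sheddase Adam10 by 0.60 (adjusted p = 0.105).

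**Figure D5:**
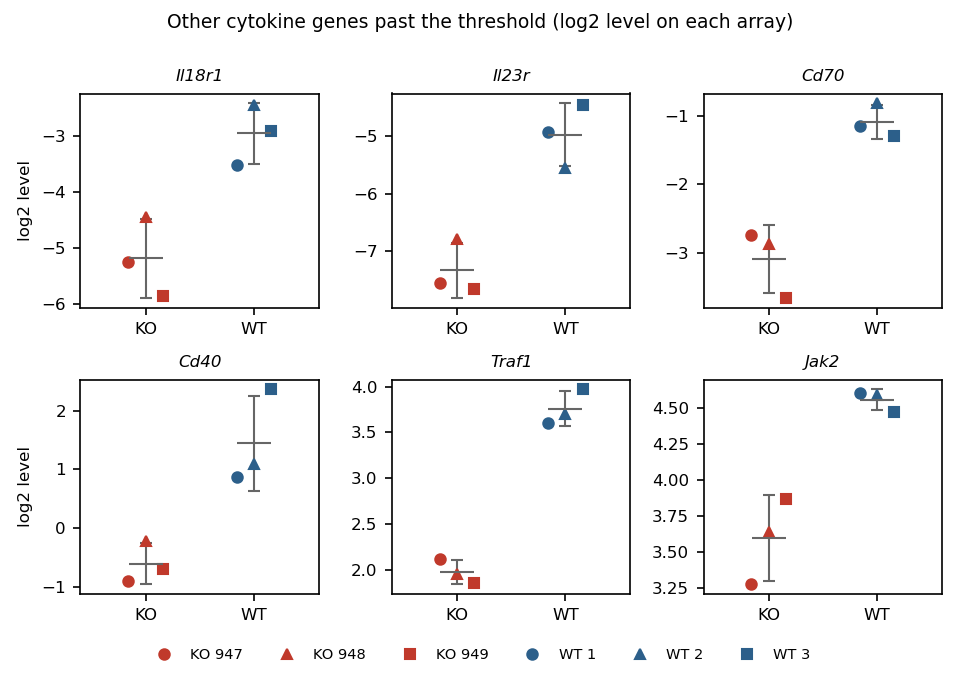
Levels (log2, scaled by the array's 75th percentile) of the 6 other cytokine genes that passed, on each KO and WT array, with mean and SD as bars. All KO arrays lie below all WT arrays in each. Il23r was below background on all KO arrays, and Il18r1 on KO 947 and KO 949.

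Markers of other cell types moved with these falls. The sums of linear signal given here are weighted to the brightest probes of each list. Sums of dendritic cell markers were 399 to 437 on KO arrays, against 543 to 674 on WT arrays. The brightest of these were Ccl17, H2-Ab1, Cd74 and Itgax, none of which passed (limma adjusted p = 0.144, 0.279, 0.0698 and 0.267). All 15 tested dendritic cell markers were lower in KO, against 7994 of all 15736 genes. Of these 15, 5 passed, against 2.27% of all genes lower past the threshold. Among the 5 were Ccr7, Cd83, Ciita and Ccl22, which differed by -2.60, -1.99, -1.89 and -1.63. Xcr1 was not above background. Of 14 eosinophil, mast cell and basophil markers 11 of the 12 tested were lower, with sums of 7.39 to 23.5 in KO and 26.2 to 55.7 in WT, and Ms4a2 was not above background. The brightest of this list on every array except KO 949 was Prg2, which did not pass (limma adjusted p = 0.262). On KO 949 the brightest was Siglecf (2.56), whose mean was higher in KO. Mcpt8 and Cma1 were dark on all 3 KO arrays and met the filter through WT arrays alone, so their direction was largely set on entry. Mcpt8 was at least 20.0-fold lower in KO, and its limma adjusted p (0.0254) is no separate support for a fall. Prss34 and Kit differed by -3.49 and -3.23 (adjusted p = 0.0406 and 0.0420), with 1 KO array of Kit below background. Granulocyte marker sums were 247 to 287 in KO, against 316 to 383 in WT, with 10 of 13 tested lower, of which S100a9 passed (-1.01, adjusted p = 0.0256). Sums of the lymphoid list overlapped (2.44 to 3.39 in KO, 3.15 to 3.70 in WT for T, NK and innate lymphoid cells), as did those of B cells (0.594 to 0.897 in KO, 0.460 to 0.661 in WT), with Ms4a1 not above background. Of 14 markers of all lists that passed, 3 also passed when blocked on slide (Msr1, Ciita and Sparc, adjusted p = 0.0406, 0.0404 and 0.0486) and 11 did not (adjusted p from 0.0528 for Ccr7 to 0.214 for Cd209a). Macrophage marker sums were 425 to 469 in KO and 369 to 420 in WT. The part of these cell types in the falls of Cd40, Cd70, Traf1, Jak2, Il23r and Il18r1, and in the rise of Il1a, was not tested.

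With an interaction of sex and genotype in the fit, 0 of 38 members passed (limma, against 0.0254% of all genes) and 5 had an unadjusted p under 0.05 (13.2%, against 7.12% of all genes). The difference of KO minus WT in females minus that in males was -1.72 for Tnfsf13b (adjusted p = 0.528), -1.41 for Il1r2, 1.82 for Lif, -1.67 for Il17ra and 1.65 for Lifr. Each value rests on 1 female per genotype.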

How the data were processed

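Spot intensity values were deposited as scanner files, extracted by the authors with Agilent Feature Extraction (10.7.3.1 per the file headers, 9.1 per the submitters' processing notes), background-subtracted and detrended within each array. A deposited table gives the authors' log2 values of 3215 probes, centred per probe, in all of which the genotypes do not overlap. It served as an alternative only, and the sources used here do not say how its arrays were scaled. Probes were named through RefSeq accessions (GRCm38.p6; 26413 of 55681 matched). Here, log2 processed signal was reduced by that of the 75th percentile of non-control spots, outlier spots were left out, and genes had to be well above background on 3 of 6 arrays, on the probe with the highest mean. KO was compared with WT in limma 3.58.1 (R 4.3.3; lmFit, eBayes), without covariates, two-sided, adjusted over all genes. Intervals are 95%. The fit was tested on simulated data with the means and spreads of these genes. The simulated noise was independent between genes, with no slide or array effect, and 67, 67 and 66 of 15701 genes were changed by a fold of 2, 4 and 8. Shares called on the real arrays, where slide and genotype are partly confounded, may differ from those of the simulation. In the simulation the fit called 20.9% of genes changed by a fold of 2, 73.1% at a fold of 4 and 98.5% at a fold of 8. A gene that did not pass may thus still differ between genotypes. Members and lists were chosen with earlier results of these data known. All members, list genes past the threshold (or the 2 largest differences) and up to 4 marker genes per list are named. Adgre1, Pdgfrb, Thy1, Cxcl12, Kitl, Dcn, Acta2, Cma1, Prg2, Siglecf, Ccl17, H2-Ab1, Cd74, Itgax and Tnfrsf25 were added with their values known. Alternatives are in the closing section. Replicate numbers are not shared between genotypes.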

Additional observations from a re-analysis of the deposited data

How the results depend on the processing

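Over 20 alternatives (19 for Il23r) the direction of Il1a, Il33 and the 6 other cytokine genes that passed never changed. For Il23r the direction was largely set by the filter, which it met through WT arrays alone. Il1a passed in 16 (1.36 to 1.75) and Il33 in 15 (-3.10 to -2.23). The count of members past the threshold, 2, became 1 with the slide as a block, 0 on the slide with both genotypes, 0 on arrays labelled male only and 7 with array weights, which gave KO 948 a weight of 6.50. Without 1 array it ranged from 0 (without WT 1) to 3 (without KO 947, where Osmr was added on KO arrays below background). On the slide with both genotypes and on male arrays the adjusted p was 0.0667 and 0.0600 for Il1a and 0.126 and 0.0608 for Il33. The count of other cytokine genes, 6, became 3 with quantile normalization, with no filter, with the slide as a random block and on arrays labelled male only. It was 11 with trend and robust eBayes and 40 with array weights, and without 1 array it ranged from 1 (without WT 1) to 13 (without KO 947). With the slide as a fixed block none of the 6 passed. The 1 gene that did was Tnfrsf25 (-3.97 there), which did not pass in the main fit (limma adjusted p = 0.0781) and was above background on 1 KO array only. The members' median moved to 0.21 with scaling to the array median. Counts over all genes ran from 24 to 3100, against 537. Of the 36 members that did not pass, 19 changed sign in at least 1 alternative and 6 passed in at least 1. Il1a, Il33 and Il1r1 stand in the authors' table. Signal over background limits Il12a, Il23a, Osmr, Lif and Il23r. The cause of these changes was not tested.
No paired analysis was possible because the genotypes share no replicate numbers.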
